A study of Homo sapiens with 6 samples.

Results

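Protein arginine methyltransferases (PRMTs) transfer methyl groups from S-adenosylmethionine to arginine residues of histones and many other proteins. The family members analysed here were the 9 human genes PRMT1, PRMT2, PRMT3, CARM1 (also called PRMT4), PRMT5, PRMT6, PRMT7, PRMT8 and PRMT9, together with WDR77, which encodes the MEP50 subunit that PRMT5 needs for full activity. They were chosen by gene name, and all 10 were found among the 58735 genes of the table. RNA was sequenced from MM.1S, an established human multiple myeloma cell line. A negative control siRNA (si-NC) was given to the cells of 3 control libraries, and siRNA against PRMT1 to those of 3 PRMT1 knockdown (PRMT1 KD) libraries. Per the methods of the study, the siRNA was used at 100 nM and the cells were taken 72 h later. The knockdown is transient and was made in 1 cell line, and the labels do not say that the replicates came from separate cultures, so p-values measure the spread between these libraries only.

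Type I enzymes (PRMT1, PRMT2, PRMT3, CARM1, PRMT6 and PRMT8) place both methyl groups on the same nitrogen and make asymmetric dimethylarginine. Type II enzymes (PRMT5 and PRMT9) make symmetric dimethylarginine, and the type III enzyme PRMT7 stops at monomethylarginine. PRMT1 is the main type I enzyme of mammalian cells, and loss of its activity is known to leave arginines open to methylation by other members. Whether the mRNA of the other members changed when PRMT1 was silenced is the comparison made here. Protein amounts and methylation were not measured in these libraries.

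Expression was given as FPKM, in which the fragments counted for a gene are divided by its length and by a size of the library. Here that size was a median-of-ratios scaling factor times a constant shared by all libraries. The libraries held 14439217 to 16465026 reads on genes, worked back from the FPKM values. A gene was tested if its mean was at least 1 FPKM over the 6 libraries, which 13585 genes and 9 of the 10 members met. PRMT8 was too low to be tested. Fold changes and 95% intervals are on the log2(FPKM + 1) scale and come from limma, and a gene was called changed at a limma adjusted p under 0.05 (Benjamini-Hochberg, over all genes tested). Of all genes tested, 279 were called (2.05%), 134 lower and 145 higher in PRMT1 KD. The 8 plasma cell markers examined were expressed at means of 2.18 to 274 FPKM, so the defining markers of the labelled cell type were present. Of 14 markers of other cell types, 12 had a mean under 1 FPKM. The other two were PAX5, at a mean of 1.06 FPKM, and CD3E, a subunit of the T cell receptor complex, at 32.1 to 35.6 FPKM in control and 36.5 to 39.0 FPKM in PRMT1 KD libraries. CD3D, another subunit of that complex, was at 0.456 to 0.845 FPKM in control and 0 to 0.326 FPKM in PRMT1 KD libraries, and MS4A1, CD8A, COL1A2 and HBB were listed at 0 in every library. The 14 summed to 35.4 to 39.0 FPKM in control and 39.4 to 41.2 FPKM in PRMT1 KD libraries, and their part in the results was not tested.

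An siRNA directs cleavage of mRNA that its guide strand pairs with, and a close match in a related gene could be cut as well. The target sequences listed for PRMT1 are shown with the closest sites found in transcripts of PRMT8 and PRMT2, since these held the best matches among the other members. Capitals mark bases that differ from the siRNA target, and all sequences run 5′ to 3′.
si-PRMT1-1 target: gcaactccatgtttcataa
PRMT8 closest site: gGaactccatgtACcaCaa
si-PRMT1-2 target: agacggtgttctacatgga
PRMT8 closest site: agacCgtCttctacTtgga
PRMT2 closest site: agacgCtgttcATGatgga
si-PRMT1-3 target: ccatcgacctggacttcaa

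The targets lie in the coding sequence of PRMT1 on the plus strand of chromosome 19 (GRCh38), at chr19:49681947-49681965, chr19:49686635-49686653 and chr19:49688178-49688196. These are exons 4, 10 and 11 of the GENCODE 29 transcript ENST00000532489.5. The target of si-PRMT1-1 was found in 11 of 11 coding transcripts of PRMT1, and those of si-PRMT1-2 and si-PRMT1-3 each in 4 of 11. The 7 coding transcripts without them are annotated with an mRNA 3′ end that was not found, so the annotation does not show whether they extend to these sites. The PRMT8 site for si-PRMT1-1 has 4 mismatches to the target over 19 bases (chr12:3549973-3549991, plus strand, coding sequence), and the site for si-PRMT1-2 has 3 (chr12:3592261-3592279, plus strand, coding sequence). The PRMT2 site for si-PRMT1-2 has 4 mismatches (chr21:46663400-46663418, plus strand, coding sequence). The remaining members differed from these targets by at least 5 bases, and WDR77, which is no methyltransferase, by 8 for each siRNA. For si-PRMT1-3 the closest sites, in PRMT3 and CARM1, had 5 mismatches. The sources used here do not say which of these siRNAs the sequenced cells received.

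Of the 9 members tested, 1 was called lower, PRMT1 itself, and 0 were called higher by limma. Over all genes tested, 0.986% were called lower and 1.07% higher. An unadjusted limma p under 0.05 was reached by 3 of the 9, with the siRNA target PRMT1 among them, against 19.5% of all genes tested. With voom, which called 6.54% of all genes tested, PRMT1 was again the only member called. The PRMT1 gene (ENSG00000126457) spans 49675786 to 49689029 of chromosome 19, plus strand. It measured 61.7, 62.8 and 58.9 FPKM in control and 13.3, 14.0 and 12.5 FPKM in PRMT1 KD. The groups were far apart, and the spread within each was small. The means were 61.1 ± 1.97 FPKM (SD, n = 3) and 13.3 ± 0.775 FPKM (SD, n = 3), so 21.7% of the control mean was left. On the log2 scale the change was -2.13 with a 95% interval of -2.26 to -1.99 (limma adjusted p = 2.77e-05), and no other gene of the 13585 had a smaller p. An exact two-sided permutation test gave 0.1, the smallest p that 3 libraries against 3 can give. The values rest on 4672 to 4903 reads per control library and 911 to 1051 per PRMT1 KD library. In these bulk libraries, fewer cells with PRMT1 mRNA and less of it in each cell cannot be told apart. Its span is shared in part by ADM5 and MIR5088, read in the same direction, and by AC011495.3, read in the other, and the sources used here do not say whether reads were counted by strand.

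**Figure D1:**
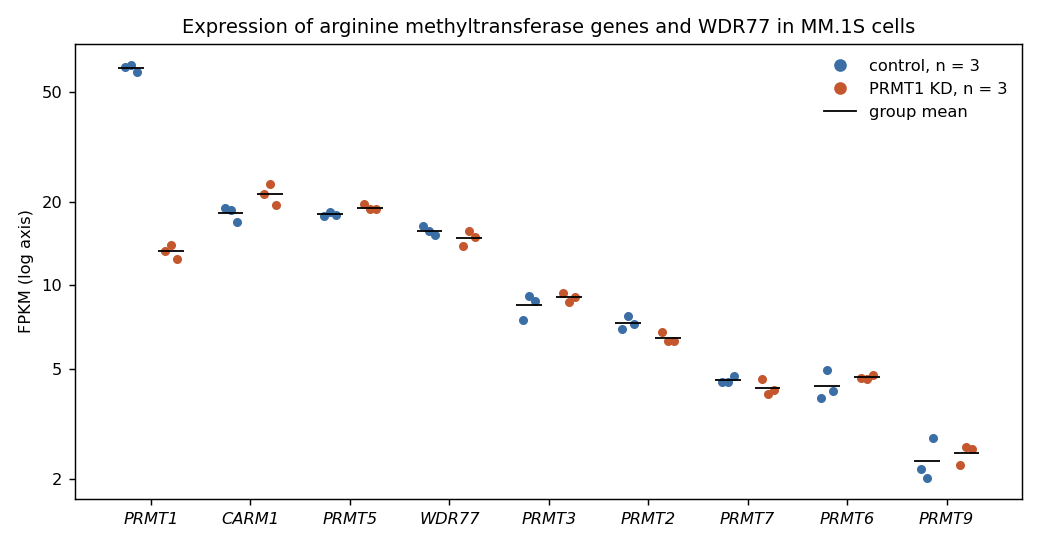
FPKM (log axis) of the 9 tested members in each of the 3 control and 3 PRMT1 KD libraries, with genes ordered by their control mean and lines at the group means. PRMT1 drops from 61.1 to 13.3 FPKM on average, while the means of the other 8 lie between 87.8% (PRMT2) and 117% (CARM1) of their control means.

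None of the other 8 members tested was called changed. Their log2 fold changes lay between -0.16 for PRMT2 and 0.22 for CARM1, with limma adjusted p from 0.180 to 0.790, and their median was 0.073 against 0.0095 over all genes tested. Of these 8, 5 had a positive and 3 a negative log2 fold change. At an unadjusted limma p under 0.05, 2 of the 8 passed, CARM1 and PRMT2, against 19.5% of all genes tested. In 3 of the 8 the PRMT1 KD libraries did not overlap the control libraries, 2 higher (CARM1 and PRMT5) and 1 lower (PRMT2). The same held for 25.9% of all genes tested, 13.6% higher and 12.3% lower. With 8 genes, these counts are near the background and are read as no result about the members.

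How large a change these libraries could have missed is given by the 95% intervals. Over the 8 members, the upper bounds ran from 0.988-fold for PRMT2 to 1.32-fold for CARM1, and the lower bounds from 0.807-fold for PRMT2 to 1.03-fold for CARM1. A pseudocount of 1 understates changes of low genes. With a pseudocount of 0.1 the bounds reached from 0.786-fold to 1.37-fold at the widest. These intervals are for single genes and are not adjusted for the number of genes. They cover the spread between these libraries only and leave out PRMT8, which was too low to be tested.

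**Figure D2:**
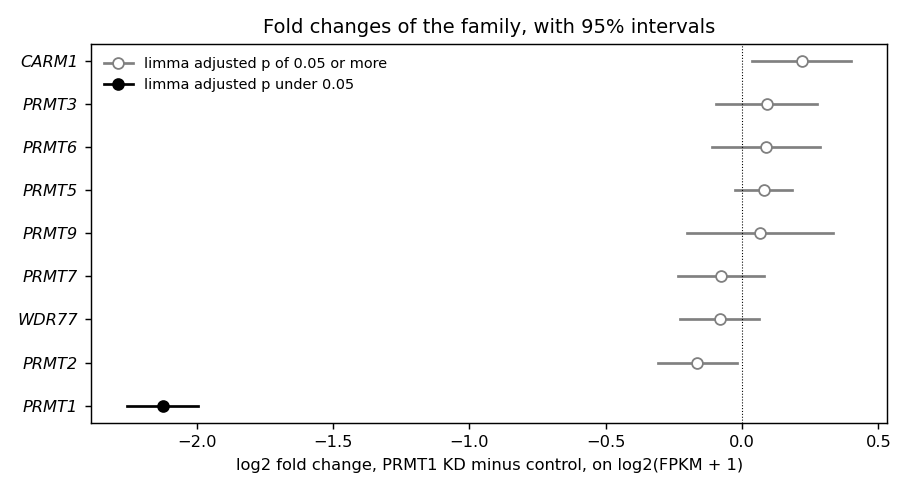
Log2 fold change of each tested member, PRMT1 KD minus control on log2(FPKM + 1), as points with 95% limma intervals. PRMT1, at -2.13, is filled because it passed an adjusted p of 0.05, and the other 8 are open, with CARM1 at 0.22 and PRMT2 at -0.16 at the ends of their range.

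CARM1 is a type I enzyme that methylates histone H3 and RNA-processing proteins and acts as a transcriptional coactivator. Its gene (ENSG00000142453) spans 10871513 to 10923070 of chromosome 19, plus strand, and overlaps YIPF2 on the opposite strand. It measured 19.1, 18.8 and 16.9 FPKM in control and 21.4, 23.3 and 19.6 FPKM in PRMT1 KD. All PRMT1 KD libraries lay above all control libraries, the highest control being 19.1 and the lowest PRMT1 KD 19.6 FPKM. The means were 18.2 ± 1.17 and 21.4 ± 1.85 FPKM (SD, n = 3 each), 117% of control. The log2 fold change of 0.22 (95% interval 0.038 to 0.40) had a limma p of 0.0244, the rank 1836 among all genes tested from the smallest p, and an adjusted p of 0.180. The exact two-sided permutation test gave 0.1. The difference therefore did not pass the threshold over all genes.

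PRMT2 is a type I enzyme with an SH3 domain and weak activity that binds nuclear receptors. Its gene (ENSG00000160310, chromosome 21, 46635167 to 46665124, plus strand) overlaps the pseudogene DSTNP1 on the opposite strand. It measured 6.96, 7.74 and 7.26 FPKM in control and 6.75, 6.26 and 6.26 FPKM in PRMT1 KD. The groups did not overlap, and the gap between them, from 6.75 to 6.96 FPKM, was small beside the spread. The log2 fold change was -0.16 (95% interval -0.31 to -0.018, limma p = 0.0327 unadjusted and 0.210 adjusted), and the exact permutation test again gave 0.1. PRMT2 holds a site with 4 mismatches to the target of si-PRMT1-2, shown above, and a part of that siRNA in this value was not tested.

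PRMT3, a type I enzyme of the cytosol known to methylate the ribosomal protein RPS2, measured 7.47, 9.13 and 8.77 FPKM in control and 9.34, 8.70 and 9.08 FPKM in PRMT1 KD. The groups overlapped, and the first control library stood below the other five. The difference on the log2 scale was 0.090 (95% interval -0.094 to 0.27, limma adjusted p = 0.567). PRMT6, a nuclear type I enzyme that methylates arginine 2 of histone H3, measured 3.90, 4.94 and 4.15 FPKM in control and 4.61, 4.60 and 4.72 FPKM in PRMT1 KD. The PRMT1 KD values of PRMT6 lay inside the range of the control values, with a log2 fold change of 0.088 (95% interval -0.11 to 0.29, limma adjusted p = 0.605). PRMT3 (ENSG00000185238, chromosome 11, 20387530 to 20509294) and PRMT6 (ENSG00000198890, chromosome 1, 107056679 to 107067636) are on the plus strand and overlap no other annotated gene.

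PRMT8, the member closest to PRMT1 and known from neurons, was at or near 0 in these cells. Its reads numbered 7, 8 and 7 in control and 6, 2 and 0 in PRMT1 KD, or 0.0636 to 0.0747 FPKM and 0 to 0.0547 FPKM. The third PRMT1 KD library is listed at 0, which allows a level of up to 0.0296 FPKM (3 reads), and the second, with 2 reads, was also under the 3 reads of this limit. Over the groups, 8 reads against 22 gave a ratio of 0.383 after scaling by reads on genes, with an exact 95% interval of 0.147 to 0.893 that covers counting error only. Of those 8 reads, 6 came from the first PRMT1 KD library. Without it the ratio was 0.148 (0.0169 to 0.602), and without the third PRMT1 KD library it was 0.575 (0.221 to 1.34). The interval also reached above 1 without control replicate 2 (0.403, 0.147 to 1.03) and without PRMT1 KD replicate 2 (0.418, 0.139 to 1.06). It stayed below 1 without control replicate 1 or 3. These settings were chosen after seeing the data. PRMT8 lay below every other member in both groups. Its PRMT1 KD values were all under its control values, with 6 reads in the highest PRMT1 KD library against 7 in the lowest control library. PRMT8 was outside the genes tested, so the share of those genes without overlap does not cover it. A part of si-PRMT1-1 or si-PRMT1-2, whose closest sites in PRMT8 are shown above, was not tested. The PRMT8 gene (ENSG00000111218, chromosome 12, 3381349 to 3593973, plus strand) overlaps AC005908.1 on the same and AC005908.2 on the opposite strand.

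PRMT5 is the main type II enzyme and works in a complex with WDR77, which recruits and positions its substrates. PRMT5 measured 17.8, 18.4 and 17.9 FPKM in control and 19.7, 18.8 and 18.8 FPKM in PRMT1 KD. The groups did not overlap, and the means of 18.0 ± 0.279 and 19.1 ± 0.486 FPKM (SD, n = 3 each) differed by 1.08 FPKM. This was a log2 fold change of 0.079 (95% interval -0.025 to 0.18, limma adjusted p = 0.378, exact permutation p = 0.1). The PRMT5 gene (ENSG00000100462, chromosome 14, 22920511 to 22929585, minus strand) shares much of this span with PRMT5-AS1 on the opposite strand. PRMT5-AS1 had 4 to 12 reads in every library, against 939 to 1126 for PRMT5, and without strand the reads of their shared span cannot be told apart.

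WDR77 measured 16.4, 15.7 and 15.2 FPKM in control and 13.9, 15.8 and 14.9 FPKM in PRMT1 KD. The groups overlapped and the second PRMT1 KD library lay within the control range. On the log2 scale WDR77 differed by -0.082 (95% interval -0.23 to 0.062, limma adjusted p = 0.503). The WDR77 gene (ENSG00000116455, chromosome 1, 111439890 to 111449376, minus strand) overlaps AL390195.1 on the same strand and ATP5PB and RF00019 on the opposite strand. The other type II enzyme, PRMT9, which methylates the splicing factor SF3B2, measured 2.16, 2.01 and 2.80 FPKM in control and 2.23, 2.61 and 2.56 FPKM in PRMT1 KD. With 130 to 186 reads per library, PRMT9 had the fewest reads of the members tested and the widest interval, -0.20 to 0.34 around 0.067 on the log2 scale (limma adjusted p = 0.790). The PRMT9 libraries of the groups overlapped. Its gene (ENSG00000164169, chromosome 4, 147637785 to 147684230, minus strand) shares 34260 bases of this span with the protein-coding gene TMEM184C on the opposite strand. If reads were counted without strand, those of the shared span cannot be told apart.

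PRMT7, the type III enzyme, measured 4.46, 4.45 and 4.71 FPKM in control and 4.57, 4.03 and 4.18 FPKM in PRMT1 KD. The first PRMT1 KD library lay inside the control range and the other two below it. PRMT7 differed by -0.076 on the log2 scale (95% interval -0.23 to 0.082, limma adjusted p = 0.573). Its gene (ENSG00000132600, chromosome 16, 68310974 to 68358563, plus strand) overlaps AC020978.1 on the same strand and SMPD3 and RNU4-30P on the opposite strand. Of the related rows of the table, the processed pseudogenes PRMT1P1 and PRMT5P1 and the pseudogene CARM1P1 are listed at 0 in all 6 libraries.

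FPKM is scaled by length, so the levels of different members were set in order, as a description. The length used for each of the 10 members was the union of its annotated exons. It can exceed that of the transcripts expressed, by a factor that differs between genes. The order, ratios, shares and sums between members depend on these lengths. In control cells PRMT1 was the highest, at 61.1 FPKM, and was followed by CARM1 and PRMT5, whose libraries overlapped, then WDR77. PRMT3 and PRMT2 overlapped in turn, as did PRMT7 and PRMT6, and PRMT9 and PRMT8 came last. In PRMT1 KD cells PRMT1 moved to the fourth place, after CARM1, PRMT5 and WDR77, and its libraries (12.5 to 14.0 FPKM) overlapped those of WDR77 (13.9 to 15.8 FPKM). The libraries of CARM1 and PRMT5 again overlapped, and PRMT6 now stood above PRMT7 in FPKM, with ranges that did not overlap. PRMT7 had more reads than PRMT6 in every library and a longer length, 9458 against 4335 bases. The ratio of PRMT1 to CARM1 went from 3.36 ± 0.125 (SD, n = 3) in control to 0.620 ± 0.0175 (SD, n = 3) in PRMT1 KD.

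The FPKM values of the 9 methyltransferase genes summed to 124, 128 and 122 in control and to 81.9, 82.3 and 77.7 in PRMT1 KD, so the groups were far apart. PRMT1 made up 49.1 ± 0.726% of that sum in control and 16.4 ± 0.525% in PRMT1 KD (SD, n = 3 each). Of the type I sum, PRMT1 made up 61.4 ± 0.782% in control and 24.2 ± 0.410% in PRMT1 KD, and CARM1 18.3 ± 0.827% and 39.0 ± 1.72%. In every PRMT1 KD library CARM1 had the highest FPKM of the type I genes. These shares are descriptions and were not tested, since the fall of PRMT1 alone raises the share of every other gene.

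The sums without PRMT1 set the change of the others beside that of PRMT1. The 8 remaining methyltransferase genes summed to 61.9, 65.5 and 62.6 FPKM in control and 68.6, 68.3 and 65.2 FPKM in PRMT1 KD. The third PRMT1 KD library lay under the second control library, so the groups overlapped. The means differed by 4.08 FPKM, while PRMT1 fell by 47.9 FPKM. CARM1 accounted for 3.18 FPKM of the difference and PRMT5 for 1.08 FPKM, and PRMT2 for -0.894 FPKM, none of them a called change. By type, the type I sum without PRMT1 was 38.4 ± 1.95 FPKM in control and 41.6 ± 1.70 FPKM in PRMT1 KD, the type II sum 20.4 ± 0.355 and 21.6 ± 0.280 FPKM, and PRMT7 alone 4.54 ± 0.147 and 4.26 ± 0.276 FPKM (SD, n = 3 each). An mRNA sum says nothing of enzyme activity, which differs between members.

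**Figure D3:**
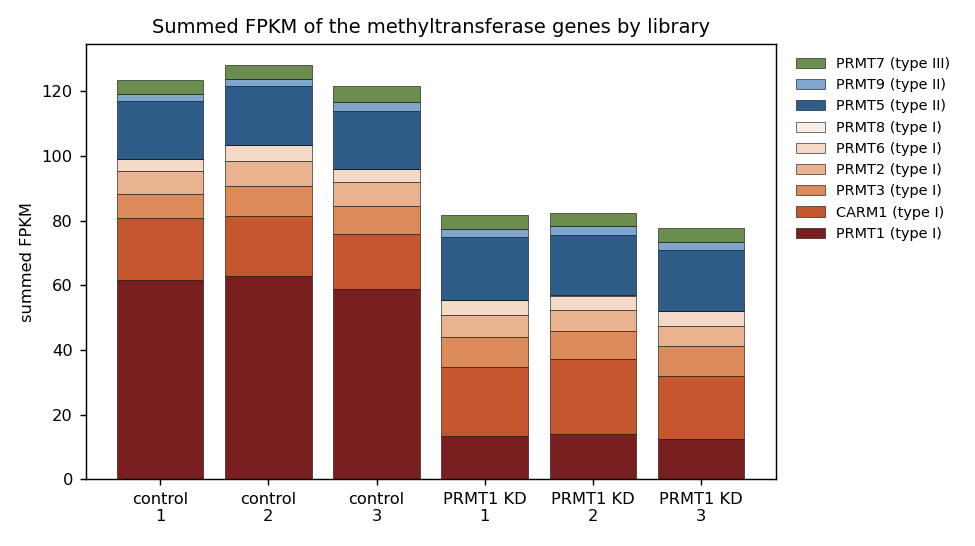
Summed FPKM of the 9 methyltransferase genes in each library, stacked by gene, with type I enzymes in reds, type II in blues and type III in green. The total falls from a mean of 124 to 80.6 FPKM, and the stack above PRMT1 changes from 63.3 to 67.4 FPKM.

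The direction of the small differences was examined across settings and with each library left out. CARM1 was higher in PRMT1 KD in 14 of 14 alternatives, at log2 fold changes of 0.16 to 0.28, and passed an adjusted p of 0.05 in none. It was lowest without the second PRMT1 KD library and highest without the third. Its 95% interval reached 0 or below without the third control, the first PRMT1 KD or the second PRMT1 KD library. The limma adjusted p of CARM1 ranged from 0.0698 to 0.386. PRMT2 was lower in 14 of 14, from -0.20 to -0.13, and PRMT5 higher in 14 of 14, from 0.059 to 0.10, neither with an adjusted p under 0.05.

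**Figure D4:**
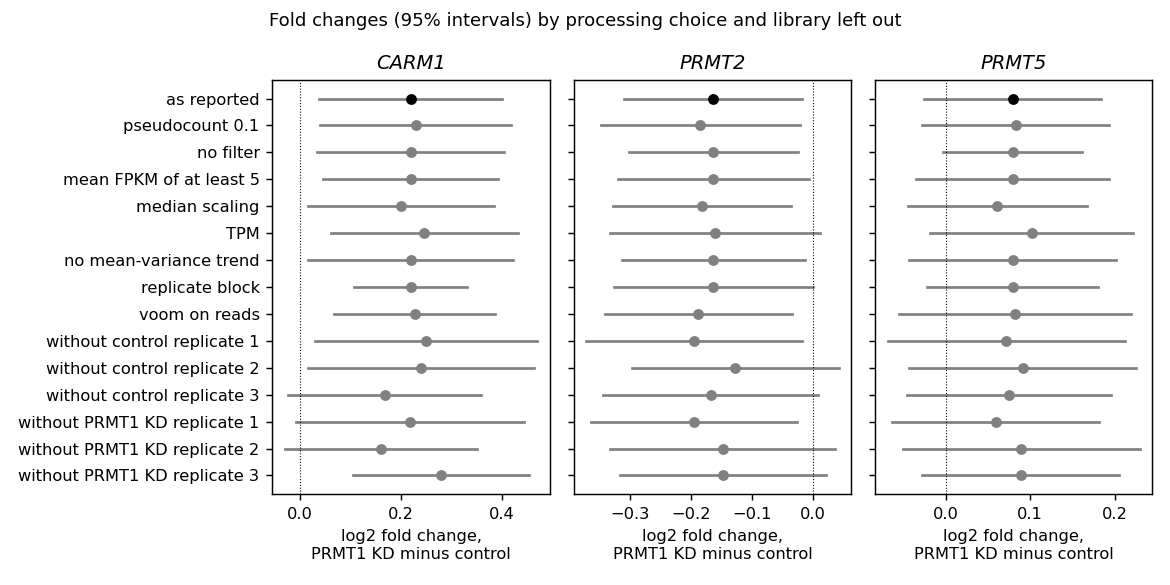
Log2 fold change (PRMT1 KD minus control, points) with 95% intervals (bars) for CARM1, PRMT2 and PRMT5 under each processing choice and with each library left out, each panel with its own scale. CARM1 stays between 0.16 and 0.28, PRMT2 between -0.20 and -0.13 and PRMT5 between 0.059 and 0.10.

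A list of 22 other genes of arginine methylation was examined beside the family. It was made of PRMT5 adaptors, other arginine methyltransferases, JMJD6, PRMT1-binding proteins and readers of methylarginine. Enzymes of the methyl donor cycle and enzymes of free methylarginine or citrulline completed it. Of the 22 genes, 19 were tested and 0 were called changed by limma, against 2.05% of all genes tested. An unadjusted limma p under 0.05 was reached by 3 of the 19, against 19.5% of all genes tested, and limma's voom on the reads called 1 of the 19, against 6.54%. These counts are at or near the background. The log2 fold change was positive in 13 and negative in 6, with a median of 0.076 against 0.0095 over all genes tested. In 4 of the 19 the groups did not overlap, each higher in PRMT1 KD, against 13.6% of all genes tested that were higher without overlap. DDAH1, PADI4 and AGXT2 were too low to be tested.

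The lowest p of the list belonged to AHCY, which removes S-adenosylhomocysteine, the product of every methyl transfer and an inhibitor of methyltransferases. It measured 73.1, 73.9 and 69.1 FPKM in control and 82.6, 84.3 and 80.6 FPKM in PRMT1 KD, and the groups did not overlap. Its log2 fold change was 0.19 (95% interval 0.091 to 0.30, limma adjusted p = 0.0786). It was past the threshold on the TPM scale (limma adjusted p = 0.0489) and with voom on the reads (limma adjusted p = 0.0317), within a range of 0.0317 to 0.239 over 14 alternatives.

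MAT2A, which makes S-adenosylmethionine, measured 98.7, 104 and 99.5 FPKM in control and 106, 113 and 110 FPKM in PRMT1 KD, a difference of 0.12 on the log2 scale (limma adjusted p = 0.197). Its regulatory subunit MAT2B went from 8.84 ± 0.112 to 9.67 ± 0.594 FPKM (SD, n = 3 each, limma adjusted p = 0.327). NDUFAF7, an arginine methyltransferase of mitochondria, went from 11.3 ± 0.299 to 12.6 ± 0.879 FPKM (SD, n = 3 each, limma adjusted p = 0.249). In each of these the PRMT1 KD libraries lay above the control libraries without passing the threshold. DDAH2, an enzyme of the family that breaks down free asymmetric dimethylarginine, was at 4.21, 3.88 and 4.32 FPKM in control and 3.91, 2.93 and 3.52 FPKM in PRMT1 KD (log2 fold change -0.21, limma adjusted p = 0.285), and its groups overlapped.

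SMN1, which encodes a Tudor-domain reader of symmetric dimethylarginine, had the widest interval of the 19 genes tested from the list. Its reads numbered 296, 296 and 1230 in control and 1007, 793 and 1246 in PRMT1 KD. The third control library was like the PRMT1 KD libraries and unlike the other two controls. Its log2 fold change was 1.06 (95% interval -0.095 to 2.22, limma adjusted p = 0.289), and without the third control library it was 1.68 (limma adjusted p = 0.0303, in a range of 0.0303 to 0.579 over 14 alternatives). SMN1 and SMN2 are near-identical copies between which the counting could split reads, so the value of either is uncertain. SMN2, named only as that copy and after its values were seen, had 161, 161 and 165 reads in control. In PRMT1 KD it had 140, 199 and 189, and a part of such a split in the SMN1 values was not tested.

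**Figure D5:**
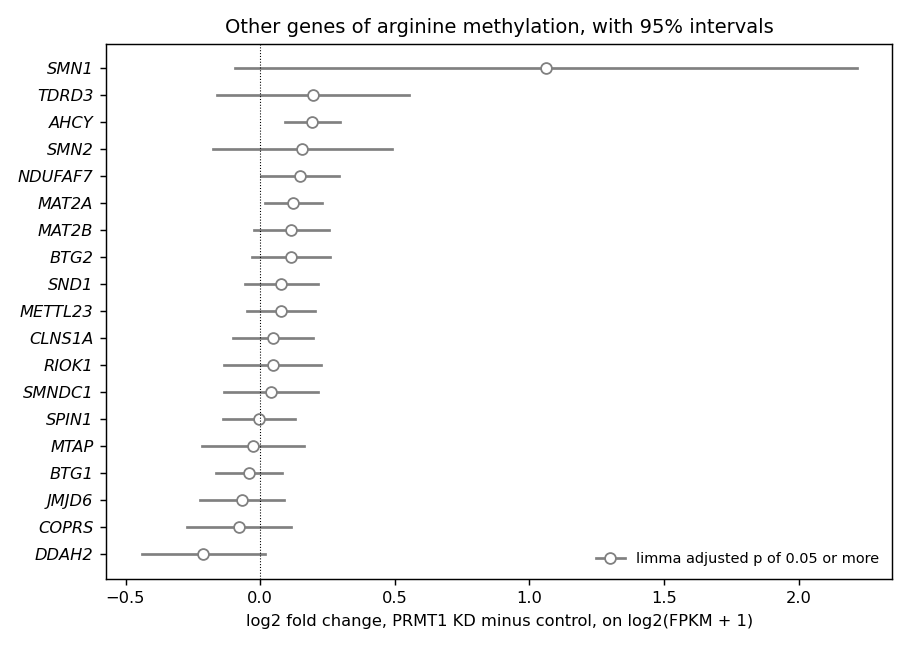
Log2 fold change (PRMT1 KD minus control on log2(FPKM + 1)) with 95% limma intervals for the 19 tested genes of the wider arginine methylation list. The intervals of AHCY (at 0.19), MAT2A and NDUFAF7 lie above 0, and SMN1 at 1.06 has the widest interval. None of the 19 passed an adjusted p of 0.05, and the intervals are not adjusted for the number of genes.

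The genes most like PRMT1 over the 6 libraries were named by the smallest root mean square difference between log2(FPKM + 1) profiles, each taken relative to its control mean. They were MIR5091 (0.386), MIR4747 (0.461), OAS1 (0.537), RNU6-824P (0.630) and CCL3 (0.632). MIR5091, MIR4747 and RNU6-824P had at most 5, 3 and 5 reads in any library. The remaining pair were better measured. OAS1, an interferon-induced sensor of double-stranded RNA, was at 6.53 to 7.36 FPKM in control and 2.02 to 2.23 FPKM in PRMT1 KD libraries. CCL3, a chemokine, was at 20.3 to 22.1 FPKM in control and 7.49 to 9.57 FPKM in PRMT1 KD libraries. No other member of the PRMT family was among them, which already follows from their small fold changes and is no separate result.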

How the data were processed

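RNA-seq of MM.1S cells was analysed in 3 control and 3 PRMT1 KD libraries, grouped by the sample labels. The values used are the FPKM that the authors deposited for each gene, beside the gene length they used. The submitters' processing notes name featureCounts 1.5.0-p3 and hg38, and the aligner is not given in the sources used here. FPKM multiplied by gene length gave whole multiples of a single step for 100% of values above 0 (tolerance 0.01 of a read), so reads per gene were worked back. The deposited values already carry a median-of-ratios scaling between libraries, since the divisor equalled that size factor times the geometric mean of the totals (ratio 1 in each library).

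Groups were compared by limma 3.58.1 (R 4.3.3) on log2(FPKM + 1), with a trend of variance on mean level and two-sided p adjusted by Benjamini-Hochberg, over genes with a mean of at least 1 FPKM, and the fit was tested on simulated data. Single members were also compared by exact permutation. siRNA targets were read from the supplementary text of the study and matched to GENCODE 29 transcripts (GRCh38). Protein sequences were not used here, so identity between members was not computed. Genes named are all 10 members, related rows, the list genes that passed or, of the others, those with the lowest p (at most 6), and the 5 profiles nearest to PRMT1, with SMN2 added outside this rule as the copy of SMN1. The members and lists were chosen with earlier results of these data known.

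Libraries with the same number hardly deviated together (correlations of 0.020, 0.063 and 0.101 across genes), so the numbers were not taken as pairs. Alternatives covered the pseudocount, filter, scaling, TPM, trend, replicate block, voom with TMM on the reads and each library left out.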

Additional observations from a re-analysis of the deposited data

How the results depend on the processing

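In each of 14 alternatives PRMT1 was the 1 member called, at log2 fold changes of -2.21 to -2.09. The other 8 members tested kept their direction in the alternatives run, except PRMT9, and none passed the threshold. With a library left out, PRMT9 ranged from -0.0015 (without control replicate 2, limma adjusted p = 0.997) to 0.17 (without control replicate 3). PRMT3 ranged from 0.013 (without control replicate 1) to 0.14 (without control replicate 2), PRMT6 from 0.030 to 0.17 without the same libraries, and PRMT7 from -0.12 to -0.045 and WDR77 from -0.037 to -0.12 without PRMT1 KD replicates 1 and 2. PRMT6, PRMT7 and PRMT9 could not be tested with a mean of at least 5 FPKM. With the replicate block, CARM1 had a log2 fold change of 0.22 with a limma adjusted p of 0.0698 and PRMT1 one of -2.13 with 0.00095, and 204 genes were called. Same-numbered libraries share only a number. The deviations of each library from its group mean correlated best with those of the same number in the other group. For replicate 1 this was narrow, at 0.020 against 0.019 for control replicate 1 with PRMT1 KD replicate 2. It is a hint from the data and not the design.

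Calls over the whole table varied with the settings, for a cause that was not tested. Against 279, there were 35 with no filter, 473 with a mean of at least 5 FPKM, 43 without the trend and 889 with voom on the reads. Leaving out a library gave 13 to 95, with fewer libraries in the fit: 13, 19 and 95 without control replicate 1, 2 and 3, and 34, 15 and 26 without PRMT1 KD replicate 1, 2 and 3. Of the calls, 52.0% were higher in PRMT1 KD, against 38.3% after median scaling and 62.5% on the TPM scale. PRMT1 made up 47.8% of the reads of the 9 methyltransferase genes in control, not divided by length, against 49.1% of the FPKM. PRMT9, with 130 to 186 reads per library, is the tested member that depth limits most.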
